A study of Solanum lycopersicum with 24 samples.

Results

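The comparison described here sets heat-stressed leaves of the tomato double mutant rs2z35 36, in which RS2Z35 and RS2Z36 are both mutated, against heat-stressed leaves of the single mutant rs2z35. It asks what the additional loss of RS2Z36 changes at the level of transcripts when RS2Z35 is already missing. By genotype and treatment labels it takes 6 of the 24 RNA-seq samples, 3 of rs2z35 36 and 3 of rs2z35, all exposed to 40 °C for 1 h (HS). The other samples are rs2z36 and WT in HS, and the same 4 genotypes held at 25 °C for 1 h (control). All plants are cultivar Moneymaker, and excised leaves were treated, with several leaves pooled per sample. Both alleles are CRISPR/Cas9 changes that cause a frameshift, and the double mutant was obtained by crossing the single mutants, so that the genotypes compared are separate lines. An effect of an allele cannot be told apart from other differences between the lines. Loss of RS2Z36 and its effect stand below for such differences between lines. Of 34075 genes in the count files, 23162 reached a total of 10 or more reads in the 12 HS libraries and were tested.

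RS2Z35 and RS2Z36 are serine/arginine-rich proteins of a subfamily found only in plants, with an RNA recognition motif, zinc knuckles and a region rich in arginine and serine. SR proteins bind pre-mRNA and influence which splice sites the spliceosome uses, and they are known to take part in stress-dependent splicing. HSFA2 is a heat stress transcription factor whose transcript accumulates strongly in heat and is itself alternatively spliced. Counts of reads per gene, as used here, show transcript abundance and not splicing.

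The 6 libraries held between 16853134 and 17529715 counted reads in rs2z35 36 and between 18476338 and 23929283 in rs2z35, so that depth differed between the genotypes without overlap. Levels are given as CPM, read counts scaled to library size with TMM factors over the 12 HS libraries, which allow comparison of a gene between libraries but not between genes of different length. The median SD of log2 CPM between replicates was 0.153 in rs2z35 36 and 0.152 in rs2z35, over 17575 genes with a mean of at least 1 CPM. In each genotype 1 library stood apart from its replicates. The counts of rs2z35 replicate 2, the deepest library, differed from those of replicates 1 and 3 by a chi-square of 23.8 and 25.4 for each degree of freedom, against 7.96 between replicates 1 and 3. Those of rs2z35 36 replicate 3 gave 12.7 and 12.9, against 7.37 between replicates 1 and 2. Counts of called genes without either library are given with the results. As a check of the labelled tissue, photosynthesis transcripts summed to between 3278 and 4765 CPM in rs2z35 36 and between 3034 and 4016 CPM in rs2z35.

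The targeted genes give a check of the labels. The sources used here give no gene number for either, and both were matched by their description as splicing factors of the RS2Z32 type, the one with the larger WT heat log2FC (1.01 against 0.29) being taken as RS2Z36. RS2Z35 (Solyc05g054920) had 38.4, 33.8 and 33.8 CPM in rs2z35 36 leaves, against 33.6, 39.99 and 35.96 CPM in rs2z35 leaves. The 2 genotypes overlapped (log2FC -0.05, SE 0.09, adjusted p = 0.855), and both lay far below the 199.9 CPM of rs2z36 and the 182.6 CPM of WT, which is the order of the labels. RS2Z36 (Solyc09g005980) had 72.7, 69.0 and 66.3 CPM in rs2z35 36, against 91.5, 100.4 and 88.1 CPM in rs2z35. It was lower in every rs2z35 36 library (log2FC -0.43, SE 0.08, adjusted p = 0.0216). In other fits of edgeR's quasi-likelihood test its log2FC stayed below 0, but most left-out libraries took its adjusted p past 0.05 (0.0457 to 0.0977). The adjusted p was 0.125 with the replicate number in the fit and 0.0821 with the 6 libraries alone. In rs2z36 leaves RS2Z36 averaged 72.0 ± 1.9 CPM, and in WT 89.7 ± 7.8 CPM (SD, n = 3 each). The deposited counts therefore still show RS2Z36 reads in the mutant, and a read count does not tell whether functional protein was made. HSFA2 (Solyc08g062960) had 3116, 2745 and 2261 CPM in rs2z35 36, against 2206, 3462 and 2360 CPM in rs2z35, and these ranges overlapped (log2FC 0.02, SE 0.19, adjusted p = 0.979).

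**Figure D1:**
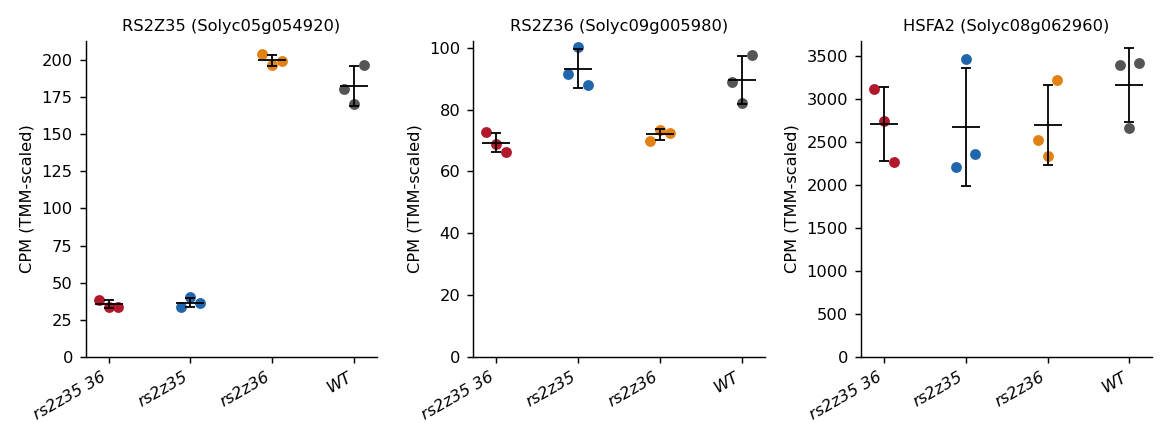
CPM of RS2Z35, RS2Z36 and HSFA2 in each HS library of rs2z35 36, rs2z35, rs2z36 and WT. Points are libraries, horizontal bars are means and error bars are SD (n = 3 each). RS2Z35 is low in both genotypes that carry the rs2z35 allele, RS2Z36 is lower in rs2z35 36 than in rs2z35 without overlap, and HSFA2 overlaps between all genotypes.

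Across all genes, the leaves of rs2z35 36 differed from those of rs2z35 in a small set. Of the 23162 genes, 34 (0.147%) had an absolute log2FC above 1 with an adjusted p below 0.01 by edgeR's quasi-likelihood test, and these are the called genes, or DEGs, below. The DEGs comprised 23 genes that were higher and 11 that were lower in rs2z35 36. The higher DEGs included transcription factors, a tetraspanin and an NADPH oxidase, and the lower ones included enzymes of phenylpropanoid and terpenoid metabolism. At an adjusted p below 0.05 and any fold change, 312 genes (1.35%) were higher and 189 (0.816%) were lower, with median log2FC of 0.77 and -0.68. All 34 DEGs had non-overlapping values between the genotypes, as did 19.1% of all tested genes.

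The size of the set depended on how replicate variation was modelled. The deposited HS counts had been adjusted for a batch variable and hold almost no difference between replicate numbers. With the replicate number as a term in the fit, 5 of the 34 DEGs stayed called. Without rs2z35 36 replicates 1, 2 and 3 in turn, 10, 8 and 14 genes were called, and without rs2z35 replicates 1, 2 and 3 there were 11, 12 and 12. DESeq2 called 118 genes, among them all 34.

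**Figure D2:**
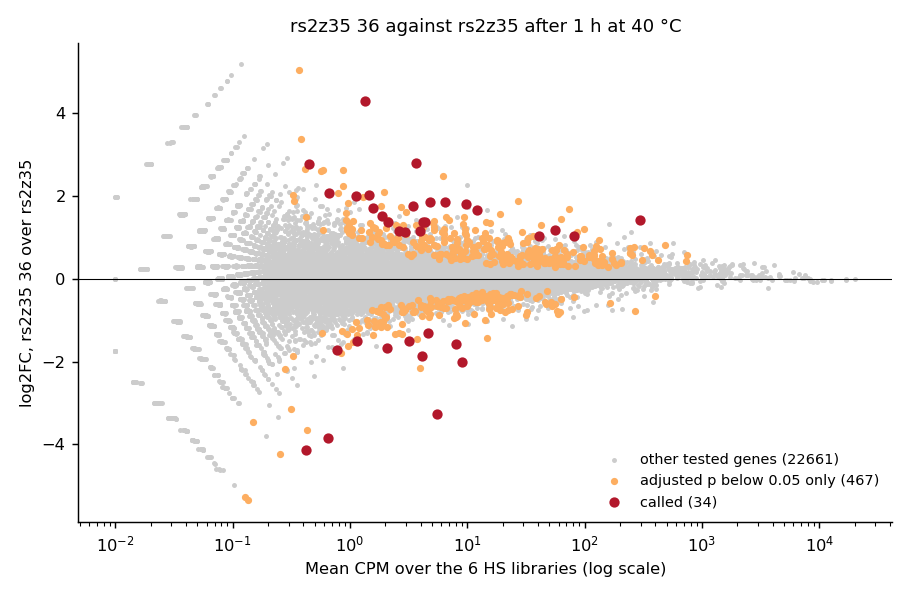
log2FC of rs2z35 36 over rs2z35 in HS against the mean CPM of the 6 libraries (log scale), 1 point per tested gene. The 34 DEGs are red and further genes with an adjusted p below 0.05 are orange. DEGs lie on both sides of 0, with more above (23) than below (11).

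A group of 8 DEGs, picked out after their values were seen, stayed called when any of the 6 libraries was left out, and 5 of these also with the replicate number in the fit. The 5 were a 2-oxoglutarate-dependent oxygenase, a caffeoyl-CoA O-methyltransferase and a xyloglucan endoglucanase inhibitor, which were lower in rs2z35 36, and a tetraspanin and a gene annotated as plasma protein, which were higher.

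Solyc10g018190, of the family of 2-oxoglutarate and Fe(II)-dependent oxygenases that oxidise many plant metabolites, had 0.83, 0.94 and 1.31 CPM in rs2z35 36, against 10.2, 8.90 and 10.7 CPM in rs2z35. Every rs2z35 36 library was far below every rs2z35 library (log2FC -3.26, SE 0.26, adjusted p = 0.00023). The level in rs2z36 was 1.05 ± 0.30 CPM and that in WT 4.06 ± 1.38 CPM (SD, n = 3 each). The gene was therefore low in both genotypes with the rs2z36 allele, and rs2z35 had the highest level of the 4 genotypes.

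Phenylpropanoid genes were among the lower DEGs. Caffeoyl-CoA O-methyltransferase methylates precursors of lignin. The gene Solyc02g093270 of this annotation had 1.95, 1.81 and 1.59 CPM in rs2z35 36, against 6.82, 7.16 and 5.53 CPM in rs2z35 (log2FC -1.87, SE 0.18, adjusted p = 0.000782). A gene with the same annotation on another chromosome, Solyc10g050160, had 3.02, 2.56 and 2.41 CPM in rs2z35 36, against 7.07, 6.23 and 6.69 CPM in rs2z35 (log2FC -1.32, SE 0.14, adjusted p = 0.00112). Both fell in every rs2z35 36 library, and neither passed the test between rs2z36 and WT, with log2FC of -0.32 (SE 0.16) and -0.21 (SE 0.13).

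The xyloglucan endoglucanase inhibitor Solyc01g080010 belongs to a group of secreted proteins that block microbial enzymes cutting cell wall xyloglucan. It had 4.38, 3.87 and 3.83 CPM in rs2z35 36, against 13.1, 12.2 and 10.7 CPM in rs2z35 (log2FC -1.58, SE 0.15, adjusted p = 0.000782). It was the 1 member of 20 tested cell wall genes that passed an adjusted p below 0.05 as lower, a list too short to set apart from the 0.816% of all tested genes. Solyc09g092560, annotated as cytochrome, had 1.833, 1.498 and 1.642 CPM in rs2z35 36, against 4.41, 4.66 and 5.19 CPM in rs2z35 (log2FC -1.52, SE 0.15, adjusted p = 0.000782). The remaining lower DEGs named by the rule were Solyc11g006505, of the nuclear transport factor 2 family, with log2FC -1.67 (SE 0.26), and the alpha/beta-hydrolase Solyc09g009550 with log2FC -1.50 (SE 0.22). Solyc11g006505 averaged 0.99 CPM in rs2z35 36 and 3.18 CPM in rs2z35, while rs2z36 and WT both had more, at 6.41 and 6.36 CPM.

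Among the higher DEGs, the tetraspanin gene Solyc07g006280 had the most reads of those with a description. Tetraspanins are membrane proteins that organise other proteins into microdomains. It had 436.9, 468.7 and 400.0 CPM in rs2z35 36, against 156.0, 160.6 and 174.4 CPM in rs2z35 (log2FC 1.41, SE 0.12, adjusted p = 0.000496). The means in rs2z36 (324.6 ± 49.1 CPM) and WT (223.0 ± 27.5 CPM; SD, n = 3 each) lay between those of rs2z35 36 and rs2z35. Solyc03g097180, annotated as plasma protein and outside the naming rule, had 74.0, 84.8 and 74.6 CPM in rs2z35 36, against 32.2, 36.8 and 34.0 CPM in rs2z35 (log2FC 1.18, SE 0.09, adjusted p = 0.00023).

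Of the 15 largest increases that the naming rule gave, 5 carried an annotation as transcription factors, although most were expressed at low levels. No list of all transcription factors was drawn, so that their share among all tested genes is not known. These 5 are described as single genes. Nuclear factor Y subunit A-8 (Solyc03g121940), a subunit of the complex that binds CCAAT boxes, had 7.51, 7.93 and 7.22 CPM in rs2z35 36, against 2.61, 1.86 and 1.79 CPM in rs2z35 (log2FC 1.86, SE 0.18, adjusted p = 0.000782). WRKY transcription factor 55 (Solyc04g072070) had 9.46, 11.4 and 9.36 CPM in rs2z35 36, against 1.86, 3.56 and 2.81 CPM in rs2z35 (log2FC 1.86, SE 0.28, adjusted p = 0.008). For both, no library of rs2z35 36 overlapped with rs2z35. R2R3MYB transcription factor 52 (Solyc03g093890) averaged 2.35 CPM in rs2z35 36 and 0.56 CPM in rs2z35 (log2FC 2.02, SE 0.26, adjusted p = 0.00319).

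The other members of this group belong to the ethylene response factor family, whose products bind promoters of stress and hormone genes. Ethylene-responsive transcription factor 5 (Solyc03g093540) had 5.382, 5.929 and 4.597 CPM in rs2z35 36, against 1.51, 1.31 and 1.89 CPM in rs2z35 (log2FC 1.76, SE 0.22, adjusted p = 0.00297). The CRF2-like factor Solyc05g024230 had 34, 49 and 47 reads in rs2z35 36, against 0, 4 and 4 reads in rs2z35. It had the largest fitted log2FC of the DEGs, 4.28 (SE 0.46, adjusted p = 0.00112), which rests on those few reads in rs2z35. The same gene was near 0 in WT (0.05 CPM) and reached 3.87 CPM in rs2z36, so that it was expressed in both genotypes with the rs2z36 allele. These 2 were the members that passed an adjusted p below 0.05 among 17 tested genes with the word ethylene in their description, which leaves out ethylene genes described in other words, and the median log2FC of the list was -0.01, as it was for all tested genes.

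Genes for enzymes and an RNA-binding protein were also among the higher DEGs. Serine decarboxylase (Solyc08g068600), which makes ethanolamine, averaged 6.07 ± 0.34 CPM in rs2z35 36 and 2.35 ± 0.36 CPM in rs2z35 (log2FC 1.37, SE 0.17, adjusted p = 0.00297). A hexosyltransferase (Solyc02g087350) averaged 18.4 ± 3.6 CPM in rs2z35 36 and 5.82 ± 0.43 CPM in rs2z35 (log2FC 1.66, SE 0.26; SD, n = 3 each). The Pumilio-like RNA-binding protein Solyc11g008490 rose by a log2FC of 1.72 (SE 0.27) and the DNA helicase Solyc01g099500 by 1.51 (SE 0.23), both at means below 3 CPM. Of the other increases named by the rule, Solyc05g010555, Solyc06g076080 and Solyc04g077750 are annotated as unknown proteins and Solyc06g075520 and Solyc10g086680 had no description here, with log2FC between 1.36 and 2.81.

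Some DEGs outside the naming rule, chosen after their values were seen, are known from defence. The whitefly-induced gp91-phox gene Solyc03g117980, which encodes an NADPH oxidase that makes superoxide, had 105.6, 121.3 and 100.8 CPM in rs2z35 36, against 50.4, 51.4 and 59.4 CPM in rs2z35 (log2FC 1.02, SE 0.16, adjusted p = 0.00931). The Alternaria stem canker resistance gene Solyc03g114600, related to ceramide synthases, had 5.44, 5.99 and 5.14 CPM in rs2z35 36, against 2.31, 2.54 and 2.52 CPM in rs2z35 (log2FC 1.16, SE 0.18, adjusted p = 0.00839). Both groups of libraries were apart for both genes, but neither gene was called in any of the 6 fits that left out a library.

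**Figure D3:**
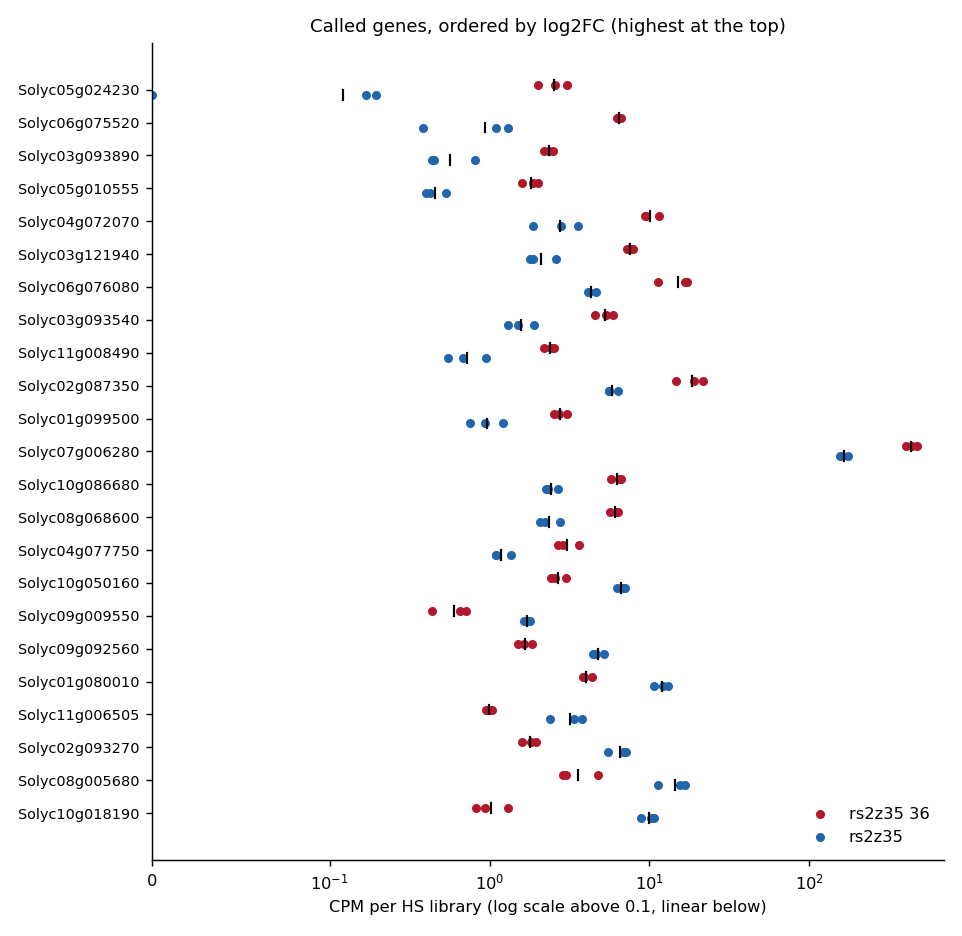
CPM in each HS library of rs2z35 36 (red, upper point row of each gene) and rs2z35 (blue, lower point row) for the 23 DEGs with the largest changes that the naming rule gave, ordered by log2FC. Black ticks are means (n = 3 each), and the axis is logarithmic above 0.1 CPM; no gene in the plot shows overlap between the genotypes, and 15 genes are higher and 8 lower in rs2z35 36.

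Gene lists were then drawn by annotation, by words in the description of 2387 tested genes, so that a list can miss members described in other words or without a description. The descriptions come from tables of the WT heat response and of mutant DEGs in the study, so that 405 of these genes were listed because they changed in a mutant of this series, and the lists are not an independent sample of each family. Among the 2387 described genes, 186 passed an adjusted p below 0.05, a larger share than the 501 of all 23162 tested genes. The shares of all tested genes printed beside the lists are therefore a low base for them. Receptor-like kinases, which perceive hormones, peptides or microbes, and resistance proteins, which detect pathogen effectors, formed a single list, which had 7 of 87 tested members higher and 2 lower at an adjusted p below 0.05, against 1.35% and 0.816% of all tested genes. Their median log2FC was 0.17, against -0.01 for all tested genes, and 18 of the 87 were described only through the mutant tables. Leaving out those 18, 5 members were higher and 1 was lower. With the replicate number in the fit, 0 of the 87 passed.

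In this list, the receptor-like protein kinase Solyc08g066310 had 3.49, 3.81 and 3.45 CPM in rs2z35 36, against 1.96, 1.40 and 1.45 CPM in rs2z35 (log2FC 1.16, SE 0.17, adjusted p = 0.00653), and it was the 1 list member that was called. Its description came only from the mutant tables. The TIR-NBS-LRR gene Solyc07g052780 had 24.13, 24.96 and 18.88 CPM in rs2z35 36, against 9.48, 10.9 and 6.16 CPM in rs2z35 (log2FC 1.35, SE 0.22, adjusted p = 0.0114). Proteins of this class recognise pathogen effectors inside the cell. The TIR-NBS-LRR gene Solyc01g102840 had 29.1, 32.1 and 28.3 CPM in rs2z35 36, against 12.8, 15.5 and 19.5 CPM in rs2z35 (log2FC 0.91, SE 0.15, adjusted p = 0.0112). The leucine-rich repeat kinase Solyc10g085120 averaged 1.53 CPM in rs2z35 36 and 0.57 CPM in rs2z35 (log2FC 1.40, SE 0.23, adjusted p = 0.012).

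Of 6 tested genes in the list of terpene synthases, 4 were lower in rs2z35 36 at an adjusted p below 0.05, against 0.816% of all tested genes. The 1 of these that passed with the replicate number in the fit, Solyc08g005680, is described as a farnesyl pyrophosphate synthase and not as a terpene synthase. Solyc08g005670 and Solyc08g005710, both among the lower genes, were the 2 list members described only through the mutant tables. The median log2FC of the list was -1.17. These enzymes supply volatile terpenes that tomato makes mainly in glandular trichomes. The Z,Z-farnesyl pyrophosphate synthase gene Solyc08g005680 had 3.02, 2.87 and 4.76 CPM in rs2z35 36, against 11.4, 16.6 and 15.5 CPM in rs2z35 (log2FC -2.02, SE 0.25, adjusted p = 0.00297). Phellandrene synthase (Solyc08g005670) had 2.31, 0.75 and 1.26 CPM in rs2z35 36, against 4.46, 8.43 and 6.49 CPM in rs2z35 (log2FC -2.16, SE 0.37, adjusted p = 0.0135). The terpene synthase Solyc08g005677 (log2FC -1.44, SE 0.25, adjusted p = 0.0135) and terpene synthase 41 (Solyc08g005710; log2FC -0.90, SE 0.21, adjusted p = 0.0445) moved the same way.

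By their gene numbers the 4 lower genes of this list lie close together on chromosome 8, and reads of related copies may be shared or lost in counting. The other 2 list members, on chromosome 1, did not pass. The beta myrcene/limonene synthase gene Solyc01g105920 had 4.44, 3.56 and 3.50 CPM in rs2z35 36, against 2.26, 3.39 and 2.33 CPM in rs2z35, with a log2FC above 0 (0.52, SE 0.18, adjusted p = 0.187). Monoterpene synthase 1 (Solyc01g105890) had 62.3, 95.1 and 62.6 CPM in rs2z35 36, against 81.6, 83.9 and 71.8 CPM in rs2z35. The whole list, which also marks glandular trichomes, summed to between 81.3 and 110.6 CPM in rs2z35 36 and between 121.3 and 145.8 CPM in rs2z35, and no member was at 0 in either mean. Whether fewer trichome cells or less RNA per cell lay behind such a difference cannot be told apart in whole leaves, and the part of such a difference in the result was not tested.

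Lists of heat stress and splicing genes had few passing members, as had all tested genes (1.35% higher and 0.816% lower), and the counts do not set these lists apart from all tested genes. The share among described genes was larger (186 of 2387), and whether these lists fall below it was not tested. Of 53 tested heat shock proteins and chaperones, 0 passed an adjusted p below 0.05 in edgeR, while 5 higher and 2 lower members had an unadjusted p below 0.05 and DESeq2 passed 1, and the median log2FC was 0.03. Of the 3 tested genes annotated as heat shock transcription factors, 0 passed in edgeR or DESeq2 and 1 had an unadjusted p below 0.05, with log2FC between 0.09 and 1.62. HSFA2 had no description here and is not among these 3. Of 29 splicing and RNA-binding genes, 1 was higher and 1 lower, the lower one being RS2Z36 itself. The higher one, splicing factor 3B subunit 2 (Solyc03g006520), a part of the U2 snRNP, had 27.1, 28.0 and 25.8 CPM in rs2z35 36, against 19.7, 18.1 and 18.3 CPM in rs2z35 (log2FC 0.53, SE 0.09, adjusted p = 0.0158).

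Among defence products, the acidic extracellular chitinase Solyc02g082930, which degrades chitin of fungal walls, had 45.4, 46.2 and 37.9 CPM in rs2z35 36, against 76.4, 79.9 and 65.5 CPM in rs2z35 (log2FC -0.78, SE 0.12, adjusted p = 0.00704). It was the 1 of 14 tested pathogenesis-related genes that passed, against 0.816% lower among all tested genes, and 1 gene does not set the list apart. Protease inhibitors (17 tested), flavonoid genes (7), jasmonate and lipoxygenase genes (7) and auxin genes (17) had 0 members past an adjusted p below 0.05 in edgeR, with median log2FC of -0.36, -0.47, -0.45 and -0.23. Between 3 and 5 members of each had an unadjusted p below 0.05 with a lower level in rs2z35 36, and DESeq2 passed 2 protease inhibitors as lower, 1 auxin gene as higher and 0 of the others. Photosynthesis genes (8 tested) also had 0 past the adjusted threshold and a median log2FC of 0.23, with 2 higher and 0 lower at an unadjusted p below 0.05 and 1 higher in DESeq2. The signs of these medians were the same with total counts or DESeq2 size factors as scaling.

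In the remaining lists between 1 and 4 members passed, against 1.35% higher and 0.816% lower among all tested genes, and single passing genes are described without a statement on their list. Transporters had 3 of 59 higher, among them the amino acid transporter 2 gene Solyc06g060110 (log2FC 0.97, SE 0.17) and the ABC transporter Solyc01g080640 (log2FC 0.35, SE 0.06), and 1 lower, the ABC transporter Solyc02g087410 (log2FC -0.79, SE 0.18). Genes with cytochrome P450 in their description had 1 of 22 higher (Solyc08g079310, log2FC 0.97, SE 0.17) and 1 lower (Solyc06g150137, log2FC -0.55, SE 0.10), which leaves out P450 genes described by a CYP number. Transposon-derived genes had 2 of 14 higher, a TNT 1-94-like element (Solyc12g150124, log2FC 1.12, SE 0.19) and a Harbinger-derived nuclease (Solyc12g009000, log2FC 1.10, SE 0.23). Glycosyltransferases had 1 of 32 higher (Solyc05g021070, log2FC 1.75, SE 0.29), and oxidative stress enzymes had 1 of 20 higher, a peroxidase (Solyc11g018800, log2FC 2.07, SE 0.43). The mean of this peroxidase over the 6 libraries was below the 1 CPM that the naming rule required, so that its fold change rests on few reads. Ubiquitin and F-box genes had 1 of 61 higher and 1 lower, the lower being the conjugating enzyme Solyc10g012240 (log2FC -0.57, SE 0.10).

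**Figure D4:**
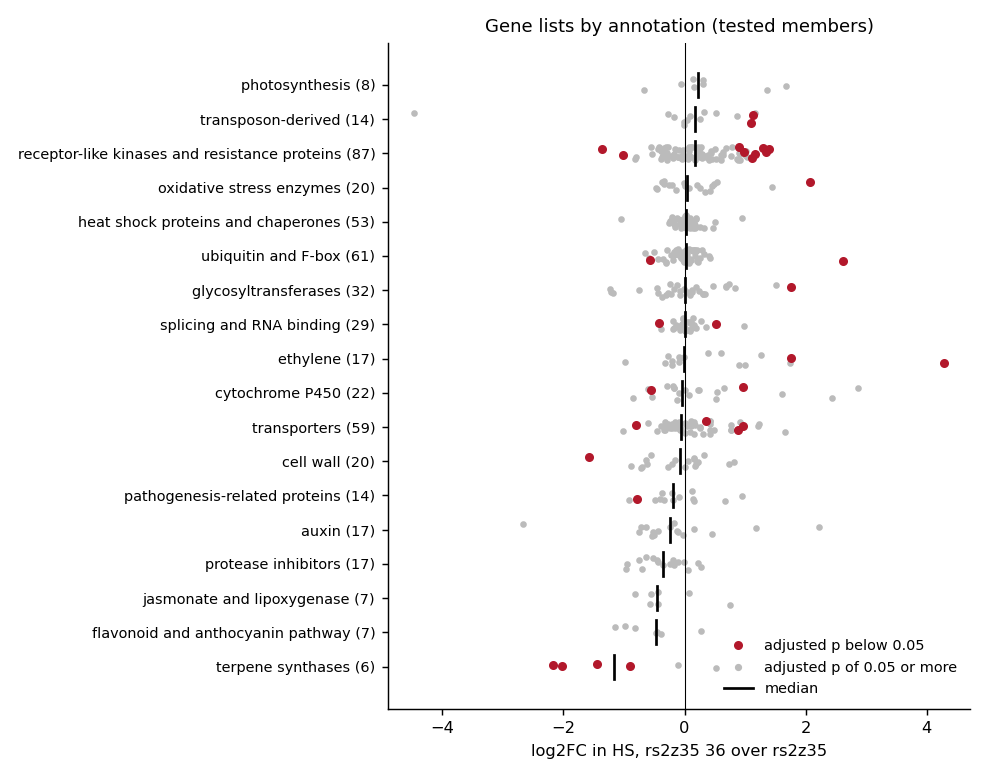
log2FC of rs2z35 36 over rs2z35 in HS for the tested members of each gene list with at least 5 tested members (number in parentheses). Red points passed an adjusted p below 0.05, grey points did not, and black ticks are list medians; terpene synthases have the lowest median (-1.17), and red points of receptor-like kinases and resistance proteins lie mostly above 0 (7 above, 2 below).

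The genes that differed between rs2z35 36 and rs2z35 were set against the heat response of WT, which uses none of the 6 libraries. Of 310 higher genes with a value (adjusted p below 0.05), 122 (39.4%) were called higher in WT HS than in WT control, and 18 (5.81%) were called lower. Over all genes tested in the mutants the shares were 13.6% and 11.5%. Of the 189 lower genes, 26 (13.8%) were called higher in WT HS and 35 (18.5%) lower. The median WT heat log2FC was 0.73 for the higher genes and -0.18 for the lower genes, against -0.02 for all. Tetraspanin Solyc07g006280, for example, had a WT heat log2FC of 1.84, and WRKY transcription factor 55 (Solyc04g072070) one of 2.35. These shares are a description, without a test, and heat and control counts differ in the adjustment the authors applied.

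The 4 HS genotypes together placed many DEGs in an order. In 21 of the 23 higher DEGs rs2z35 36 had the highest mean of the 4 genotypes, and in 18 rs2z35 had the lowest, with WT in between in 18 and rs2z36 in between in 20. In the 11 lower DEGs rs2z35 36 had the lowest mean in 9 and rs2z35 the highest in 9, and WT lay in between in 9. The means of rs2z35 36 and rs2z35 chose these genes, so that their place at the ends is in part given by that choice. On the scale of log2(CPM + 0.5) WT was nearer to rs2z35 than to rs2z35 36 in 22 of the 23 higher and in 9 of the 11 lower DEGs.

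The same pair of genotypes was compared in control leaves, with libraries that share nothing with the HS comparison. There 5 of 23532 tested genes (0.0212%) were called, 3 higher and 2 lower in rs2z35 36. Without rs2z35 36 control replicate 3 or without rs2z35 control replicate 2 there were 3. RS2Z36 itself was among them, with 42.8, 43.1 and 44.7 CPM in rs2z35 36 control leaves, against 99.9, 100.3 and 88.3 CPM in rs2z35 control leaves (log2FC -1.14, SE 0.10, adjusted p = 0.000441). The other genes called in control were NF-YA8 (Solyc03g121940, log2FC 1.26), a gene for an iron-sulfur subunit of NADH dehydrogenase (Solyc04g077755, log2FC 3.70), a sterol dehydrogenase gene (Solyc02g032330, log2FC 1.09) and the thioredoxin-like gene Solyc09g007190 (log2FC -1.10).

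NF-YA8 was the DEG common to both conditions, 1 of 34 in HS and 1 of 5 in control. In control it had 11.9, 12.4 and 13.1 CPM in rs2z35 36, against 5.07, 5.04 and 5.54 CPM in rs2z35, so that its separation held at both temperatures. Of the 34 HS DEGs, 27 (79.4%) had the same sign in control, against 60.2% of all genes tested in both, and Pearson's r across the 34 genes was 0.73, against 0.19 across all genes. In 17 of the 34 the control change had the same sign and was beyond 1.5-fold, against 1295 of the 22554 genes tested in both. Genes are not independent replicates, and no p is given. The oxygenase Solyc10g018190 was lower in control too, with 3.44, 3.07 and 2.20 CPM in rs2z35 36, against 16.3, 19.9 and 13.9 CPM in rs2z35 (log2FC -2.52, SE 0.35, adjusted p = 0.0115).

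Whether the effect of losing RS2Z36 differed between HS and control was tested as an interaction on all 24 libraries. Of 24583 genes, 2 (0.00814%) passed an adjusted p below 0.05 by edgeR, and 1744 had an unadjusted p below 0.05. DESeq2 gave 63. The tetraspanin Solyc07g006280 was higher in rs2z35 36 in HS (log2FC 1.41) but not in control (-0.21, SE 0.21), where it had 158.1, 116.6 and 121.3 CPM in rs2z35 36, against 144.4, 123.2 and 189.4 CPM in rs2z35. The difference was 1.62 (SE 0.25, adjusted p = 0.0289). The NADH dehydrogenase subunit gene Solyc04g077755 went the other way, with a larger difference in control, where it had 2.18, 3.12 and 2.72 CPM in rs2z35 36, against 0.15, 0.15 and 0.31 CPM in rs2z35. In HS it had 4.38, 4.49 and 3.50 CPM in rs2z35 36, against 1.56, 2.33 and 1.89 CPM in rs2z35, and the difference of the effects was -2.60 (SE 0.38, adjusted p = 0.024).

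The number of genes that passed the interaction changed when a library was left out. By edgeR it gave 0 genes, with 1254 to 1831 at an unadjusted p below 0.05, without rs2z35 36 control replicate 2 or 3, rs2z35 control replicate 1, rs2z35 36 HS replicate 1 or 2, or rs2z35 HS replicate 2. It gave 1 without rs2z35 control replicate 2 or 3 or rs2z35 HS replicate 1, and 6 without rs2z35 36 HS replicate 3 or rs2z35 HS replicate 3. The larger number of DEGs in HS (34) than in control (5) is a count past a threshold in each condition, and the difference itself passed the test for 2 genes. With the replicate number in the fit, 5 genes were called in HS and 5 in control, and 1 gene passed the interaction. The authors had adjusted only the HS counts for a batch variable.

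Loss of RS2Z36 was also compared where RS2Z35 is intact, as rs2z36 against WT in HS. There 33 genes (0.142%) were called, 20 higher and 13 lower in rs2z36. Without WT replicates 1, 2 and 3 there were 7, 14 and 12, and without rs2z36 replicates 1, 2 and 3 there were 11, 17 and 12. Of the 34 DEGs between rs2z35 36 and rs2z35, 30 (88.2%) had the same sign in rs2z36 against WT, against 55.3% of all tested genes, with Pearson's r of 0.55 across the 34 and 0.12 across all. In 11 of the 34 the change in rs2z36 against WT had the same sign and was beyond 1.5-fold, against 1958 of all 23162 genes, so that many of the shared signs were small changes. The genes called in both numbered 4, which is 4 of 34 and 4 of 33: the oxygenase Solyc10g018190, the Z,Z-farnesyl pyrophosphate synthase gene Solyc08g005680, the cytochrome gene Solyc09g092560 and the CRF2-like factor Solyc05g024230. The 2 comparisons share no library.

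**Figure D5:**
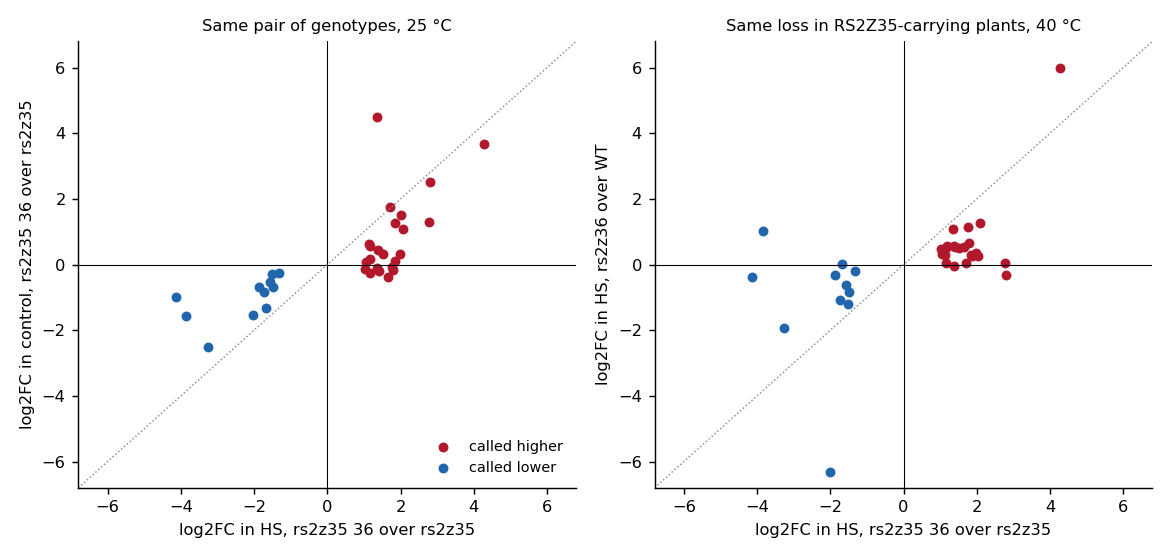
log2FC of the 34 DEGs in HS, rs2z35 36 over rs2z35 (horizontal axes), against the log2FC of the same genotypes in control (left) and of rs2z36 over WT in HS (right). Red points were called higher and blue points lower in HS, and the dotted line marks equal values; 27 of 34 genes keep their sign on the left and 30 of 34 on the right.

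The effect of RS2Z36 loss in the rs2z35 background was then tested against that in the WT background, within the 12 HS libraries. Of 23162 genes, 60 (0.259%) passed an adjusted p below 0.05, 30 in each direction. With the replicate number in the fit, 3 of these passed. Without rs2z35 36 replicates 1, 2 and 3 there were 3, 3 and 56, without rs2z35 replicates 1, 2 and 3 there were 8, 103 and 16, without rs2z36 replicates 1, 2 and 3 there were 6, 10 and 26, and without WT replicates 1, 2 and 3 there were 10, 13 and 4. The smallest p-value belonged to the proteinase inhibitor type-2 gene Solyc03g020040, whose protein blocks digestive proteases of insects. It had 38.7, 35.9 and 38.2 CPM in rs2z35 36, against 38.6, 37.5 and 36.8 CPM in rs2z35, and 17.5, 17.0 and 18.3 CPM in rs2z36, against 40.9, 45.1 and 40.7 CPM in WT. It was therefore lowest in rs2z36, without overlap with the other genotypes in HS (difference of effects 1.26, SE 0.10, adjusted p = 0.000511).

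The next gene, the unknown protein Solyc12g049611, had 4.44, 2.43 and 2.68 CPM in rs2z35 36, against 3.66, 5.17 and 4.94 CPM in rs2z35, and 3.61, 4.06 and 4.36 CPM in rs2z36, against 0.52, 0.61 and 0.58 CPM in WT (difference -3.32, SE 0.35, adjusted p = 0.0051). It was low in WT and not in any of the mutants. The caffeoyl-CoA O-methyltransferase genes Solyc02g093270 (difference -1.54, SE 0.24, adjusted p = 0.0292) and Solyc10g050160 (difference -1.11, SE 0.20, adjusted p = 0.0396) had a larger decrease in the rs2z35 background than in the WT background.

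For 2 of the 4 lower genes of the terpene synthase list, all on chromosome 8, the effect differed between backgrounds by the test. Solyc08g005680 had 3.02, 2.87 and 4.76 CPM in rs2z35 36, against 11.4, 16.6 and 15.5 CPM in rs2z35, and 0.17, 0.26 and 0 CPM in rs2z36, against 15.2, 11.1 and 10.6 CPM in WT. The gene was therefore almost silent in rs2z36 and intermediate in rs2z35 36, although both carry the rs2z36 allele (difference of effects 4.29, SE 0.56, adjusted p = 0.0189). Solyc08g005677 showed the same order, with means of 7.99 CPM in rs2z35 36, 21.7 CPM in rs2z35, 0.28 CPM in rs2z36 and 19.7 CPM in WT (difference 4.66, SE 0.51, adjusted p = 0.00564). The difference did not pass for Solyc08g005670 (3.28, SE 0.81, adjusted p = 0.124) or Solyc08g005710 (0.10, SE 0.29, adjusted p = 0.93). Values close to 0 in rs2z36 make the fitted differences imprecise.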

How the data were processed

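RNA-seq counts were taken from 24 libraries, 3 for each of 8 combinations of genotype and condition, as the labels give them. The authors deposited whole-number counts of reads per gene, not normalised. According to the study's methods, polyadenylated RNA was made into non-directional paired-end libraries, reads were mapped with STAR to SL4.0 with the ITAG4.0 annotation, and counted with HTSeq 0.9.1 (submitters' processing notes). Without strand, antisense and overlapping genes cannot be told apart. The authors adjusted the HS counts, and not the control counts, with ComBat-Seq; the batch variable is not given in the sources used here. In the HS counts the median mean square of replicate number was 0.0011 of the residual mean square, against 0.844 in control, so that p-values for HS without this term may be too small. The files held 0 rows that name no gene. The study's methods call the 3 replicates biological. Which plants went into each is not given in the sources used here, and p-values measure the spread between these samples.

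A gene entered a fit when its reads totalled 10 or more there, and was tested with edgeR 4.0.16 in R 4.3.3 (TMM, quasi-likelihood, Benjamini-Hochberg over all tested genes). The 12 libraries of a condition entered a fit, and all 24 entered the HS minus control interaction. SE is the absolute log2FC divided by the square root of F. Calls required both an adjusted p under 0.01 and a log2FC beyond 1 in either direction. The WT heat response was fitted on the 6 WT libraries and was added after the data were seen. log2 CPM used a prior count of 2. Genes were named by rule: the targeted genes and HSFA2; in each direction the 15 called genes of largest change with a mean of at least 1 CPM and no overlap; up to 4 members per list of at least 5 tested genes by smallest p, printed where the adjusted p was below 0.05; and the 2 smallest p of each interaction. The comparison, 19 gene lists and this rule were chosen with earlier results of these data known. Gene descriptions for 2404 genes came from the study's supplementary tables, of which 1 was held in part, and no fold change or p of those tables was used. Replicate pairs of the 6 libraries differed by more than sampling noise (chi-square of 7.37 to 25.4 for each degree of freedom). Scripts were tested on simulated counts. Alternatives were other scalings and filters, DESeq2 1.42.0 with and without apeglm 1.24.0, the replicate number as a block, other sample sets, and leaving out each library.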

Additional observations from a re-analysis of the deposited data

Results flagged for a closer look

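For 2 genes the effect of losing RS2Z36 in the rs2z35 background differed between HS and control by an interaction test. With the replicate number in the fit, 1 gene passed. The difference was 1.62 on the log2 scale for the tetraspanin gene Solyc07g006280 and -2.60 for the NADH dehydrogenase subunit gene Solyc04g077755.

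For 8 named genes the effect of losing RS2Z36 in HS differed between the rs2z35 and the WT background by such a test. With the replicate number in the fit, 3 of all tested genes passed, so that at most 3 of these 8 did. The log2 differences were 4.29 for Solyc08g005680 and 4.66 for Solyc08g005677, both terpene biosynthesis genes, and -1.54 for Solyc02g093270 and -1.11 for Solyc10g050160, both caffeoyl-CoA O-methyltransferase genes. They were 2.37 for the kinase gene Solyc10g085120, 1.56 for the transposon-derived Solyc12g150124, 1.26 for the proteinase inhibitor gene Solyc03g020040 and -3.32 for Solyc12g049611. Groups of 3 samples are too small for a test of single outlying libraries.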

How the results depend on the processing

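The called genes between rs2z35 36 and rs2z35 in HS numbered 34, and 118 with DESeq2, 95 with apeglm shrinkage, 53 with all 24 libraries in a single fit, 501 at an adjusted p below 0.05 and any fold, and 8 to 14 without a library. In control they numbered 5, and 32 with DESeq2, 11 with all 24 libraries and 3 to 5 without a library. For rs2z36 against WT they numbered 33, and 77 with DESeq2, 21 with the 6 libraries alone and 7 to 17 without a library. The HS minus control interaction gave 2, and 63 with DESeq2 and 0 to 6 without a library. The difference between backgrounds gave 60, and 215 with DESeq2 and 3 to 103 without a library. Other scalings and filters kept each count within 1.5 times.

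With the replicate block the counts were 5, 5, 9, 1 and 3 for these 5 comparisons in the same order. In HS, 32 genes then passed an adjusted p below 0.05 between rs2z35 36 and rs2z35, among them 0 receptor-like kinases and resistance proteins, 1 gene of the terpene synthase list and 2 ethylene genes. Of 44 named genes, 30 no longer passed. Whether the replicate numbers pair the samples could not be tested, since the authors' adjustment left next to no replicate-number effect in HS, which forces deviations with the same number to cancel. Deviations of rs2z35 36 and rs2z35 libraries with the same number correlated at -0.318, -0.142 and -0.368, and no library correlated best with its own number. Leaving out a library leaves fewer samples, and the cause of the other changes was not tested.

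Of 48 named genes, 45 kept their sign under all 14 alternatives, and of the 44 with an adjusted p below 0.05, 21 kept it without each library in turn. The log2FC of RS2Z35 (Solyc05g054920) ranged between -0.110 and 0.0244 without a library, that of HSFA2 (Solyc08g062960) between -0.105 and 0.246, and that of Solyc03g020040 between -0.0227 and 0.0314. With total counts as library size HSFA2 turned to -0.0471. Solyc03g020040 turned to 0.0207 with DESeq2 size factors, 0.02095 with DESeq2, 0.0019 with filterByExpr, 0.0014 with the 6 libraries and 0.0027 with all 24. Genes with a few reads, such as Solyc05g024230, are limited by depth.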

Other observations

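Some genes that passed an adjusted p below 0.05 but were not called, chosen after their values were seen, belong to signalling and metabolism. Mitogen-activated protein kinase 3 (Solyc06g005170), which relays defence and stress signals, had 48.3, 53.4 and 44.2 CPM in rs2z35 36, against 20.4, 23.9 and 27.3 CPM in rs2z35 (log2FC 1.03, SE 0.16, adjusted p = 0.0106). The G-type lectin receptor kinase Solyc04g077270 had 57.1, 70.3 and 55.6 CPM in rs2z35 36, against 19.8, 24.1 and 30.5 CPM in rs2z35 (log2FC 1.30, SE 0.23, adjusted p = 0.0146). In both genes every rs2z35 36 library was above every rs2z35 library.

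Lower genes of this kind included CYP97C11 (Solyc10g083790), a carotenoid hydroxylase of the P450 family that the P450 list missed, with 24.5, 24.7 and 21.8 CPM in rs2z35 36, against 42.2, 39.7 and 41.3 CPM in rs2z35 (log2FC -0.79, SE 0.08, adjusted p = 0.00112). Dicer-like 2c (Solyc11g008520), of the family that cuts double-stranded RNA into small RNAs, had 15.9, 16.5 and 17.0 CPM in rs2z35 36, against 32.3, 27.9 and 23.3 CPM in rs2z35 (log2FC -0.76, SE 0.12, adjusted p = 0.00931). The 1-aminocyclopropane-1-carboxylate oxidase gene Solyc02g036350, for the last step of ethylene synthesis and missed by the ethylene list, had 45.3, 49.0 and 40.1 CPM in rs2z35 36, against 84.5, 79.4 and 71.3 CPM in rs2z35 (log2FC -0.81, SE 0.13, adjusted p = 0.0094).

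By their gene numbers the 34 called genes lay on 11 of the 12 chromosomes, with 6 on chromosome 3, and the share of tested genes with an adjusted p below 0.05 ranged between 1.52% on chromosome 11 and 2.74% on chromosome 5, leaving out genes not placed on a chromosome. Chromosome 9, which carries RS2Z36, had 1.80%.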
